A study of Mus musculus with 24 samples.

Results

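The cytosolic ribosomal protein genes were followed in hepatocytes of young and old male mice kept on a normal or a high fat diet. The genes were taken by name from the table of gene counts. Names that start with Rpl or Rps and a digit, together with Rplp0, Rplp1, Rplp2 and Rpsa, gave 398 rows. From these, 295 rows for pseudogenes (names with -ps) and 10 rows for ribosomal S6 kinases (Rps6k) were dropped, as were 10 genes with a mean below 5 CPM (counts scaled to a library total of 1000000). This left 83 of the 55421 rows in the table, namely 46 genes of the large subunit, 31 of the small subunit and 6 others. The 6 others were Rpl22l1, Rpl36al, Rpl7l1 and Rps27l, which are paralogs of ribosomal protein genes, Rps19bp1, which encodes a protein that binds Rps19 and is not a subunit of the ribosome, and Rps4l, which the annotation lists as a transcribed pseudogene. The naming rule used names and mean level and no difference between groups, and all 83 genes passed the count filter of the test.

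The data were RNA-seq gene counts of hepatocytes, which were freed from perfused liver with collagenase and purified on Percoll, from 24 mice in 4 groups of 6. YND mice were 6-month-old C57BL/6N males on a chow diet (Teklad global, 18% protein), and YHFD mice were the same kind of mice on a diet with 60% of energy from fat for 9 weeks. OND and OHFD mice were 24-month-old C57BL/6J males on the same pair of diets. Since the labels give the young and old mice different C57BL/6 substrains, a difference of age cannot be told apart from one of substrain wherever young are compared with old. The sample titles place the mice in 2 batches, which they name by number only. Each batch held 3 mice of each group except OND, which had 2 mice in batch 1 and 4 in batch 2. Each comparison below draws on the same groups, so that comparisons share mice and are not independent of each other.

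The cytosolic ribosome is built in the nucleolus from ribosomal RNAs and a full set of ribosomal proteins, with a large subunit that holds the peptidyl transferase center and a small subunit that reads the mRNA. Many ribosomal protein genes start transcription at a C followed by a run of pyrimidines, and mRNAs that begin in this way (TOP mRNAs) are translated under the control of mTORC1, a kinase complex that senses nutrients and is the target of rapamycin. In liver, ribosome number follows feeding and growth. Rps6 is the classical substrate of the S6 kinases, and free Rpl5 and Rpl11 bind Mdm2 and thereby link ribosome assembly to p53.

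RefSeq promoter sequences (GRCm38.p6, 250 bases before to 50 bases after the annotated start) were matched by symbol to 62 of the 83 genes. Since this is 74.7% of the genes, sequence properties are given for the 62 genes alone and no statement is made for all 83. The hexamer CGGAAG, the core that ETS-family factors bind, was present on either strand in 69.4% of these 62 promoters, against 17.2% of the 27025 promoters in the table. A TATAA motif on either strand was found in 25.8% of the 62 promoters and in 25.5% of all promoters, while GGGCGG, a GC box, was found in 62.9% and 35.9%. A C followed by 4 or more pyrimidines lay exactly at the annotated start in 19.4% of the 62 promoters and in 2.49% of all. The sequences are 60 bases before and 20 bases after the start of genes that the comparisons turn on, 5′ to 3′ on the coding strand, with CGGAAG and its reverse complement CTTCCG in capitals. Rpl12 and Rpl13a were called lower on the high fat diet in young mice, Rpl37a, Rpl38 and Rps21 had some of the highest fold changes between old and young mice on the high fat diet, and Rps6 is the S6 kinase substrate.
Rpl12 (chr2:32961652-32961731, plus strand): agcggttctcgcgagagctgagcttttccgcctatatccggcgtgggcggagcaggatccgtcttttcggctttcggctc
Rpl13a (chr7:45128726-45128805, minus strand): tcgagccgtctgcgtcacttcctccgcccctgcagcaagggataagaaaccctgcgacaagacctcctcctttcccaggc
Rpl37a (chr1:72711200-72711279, plus strand): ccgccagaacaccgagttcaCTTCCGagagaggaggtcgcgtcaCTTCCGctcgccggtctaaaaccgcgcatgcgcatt
Rpl38 (chr11:114668520-114668599, plus strand): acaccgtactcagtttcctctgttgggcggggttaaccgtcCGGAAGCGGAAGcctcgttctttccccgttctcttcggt
Rps21 (chr2:180257319-180257398, plus strand): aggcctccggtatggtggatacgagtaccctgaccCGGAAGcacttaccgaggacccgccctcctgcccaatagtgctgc
Rps6 (chr4:86857348-86857427, minus strand): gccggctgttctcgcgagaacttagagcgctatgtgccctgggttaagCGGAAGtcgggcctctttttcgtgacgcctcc
The motif stood in the windows of Rpl37a, Rpl38, Rps21 and Rps6 and not in those of Rpl12 and Rpl13a, which says only that these letters were or were not in these windows.

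Total counts per mouse were between 9200332 and 22185069, and the 83 genes took up between 1.0% and 2.69% of them. Hepatocyte markers (10 genes, among them Alb and Apoa1) summed to between 69647 and 178665 CPM, the highest level of any marker list in each mouse. Markers of leukocytes (20 genes) summed to between 5.77 and 1064 CPM and those of endothelial cells (8 genes) to between 11.6 and 619 CPM, with the highest sums of both lists in OND mouse 4. OHFD mouse 2 stood apart from the other mice. Its 83 genes took up 2.69% of counts while the other OHFD mice were between 1.0% and 1.51%, and rows for ribosomal protein pseudogenes summed to 327 CPM in it and to between 29.2 and 97.2 CPM elsewhere. Its counts from the mitochondrial genome were the lowest of all mice (4.26%), and the highest were in OND mouse 4 (30.6%). Results that rest on OHFD mouse 2 are therefore given with and without it.

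As a share of all counts, the ribosomal protein genes were lowest in young mice on the high fat diet. The share was between 1.19% and 1.31% in YND mice with a median of 1.25%, between 1.01% and 1.14% in YHFD mice (median 1.06%), between 1.09% and 1.48% in OND mice (median 1.32%), and between 1.0% and 2.69% in OHFD mice (median 1.38%). Every YHFD mouse was below every YND mouse, whereas OHFD mice were found both below and above the whole range of the OND mice. Counts on large subunit genes were 1.31 times those on small subunit genes in OHFD mouse 2 and 1.33 times in OHFD mouse 4, against 1.39 to 1.47 times in the other 22 mice. A share of counts compares the genes with the rest of the RNA, so that fewer cells of a type and less of this RNA per cell cannot be told apart.

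**Figure D1:**
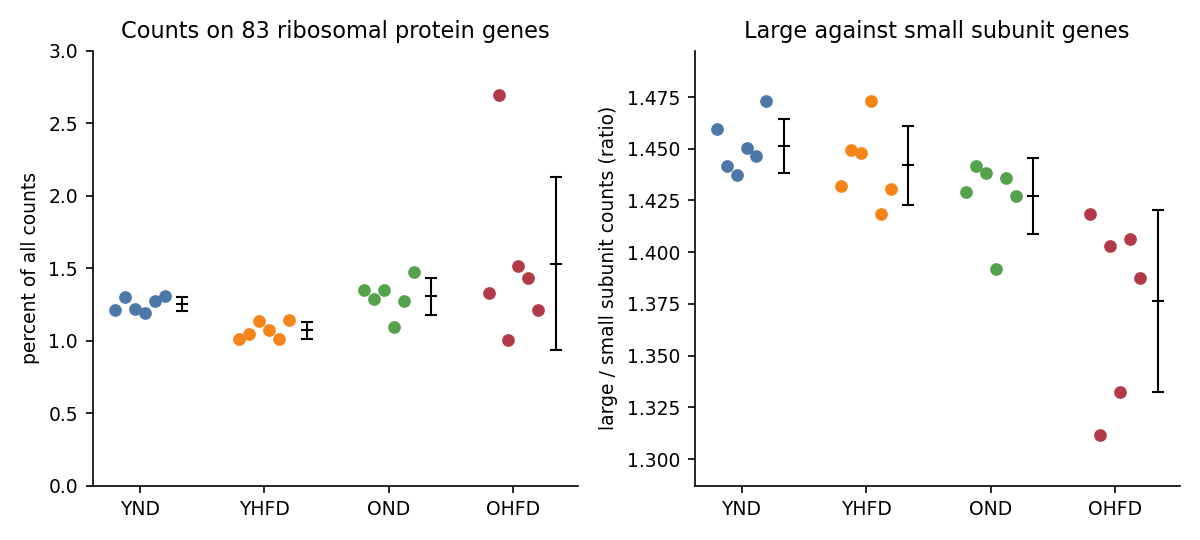
Left, percent of all gene counts that fell on the 83 ribosomal protein genes in each mouse, with an axis that starts at 0. Right, the ratio of counts on large subunit genes to counts on small subunit genes, with an axis that does not start at 0. Each point is a mouse, and bars give the mean ± SD of 6 mice. The YHFD mice lie between 1.01% and 1.14%, below all YND mice, and OHFD mouse 2 lies at 2.69%.

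Among the genes themselves, levels per length spanned a wide range. On the authors' FPKM scale, the highest means over all mice were those of Rplp1 at 422 FPKM, a P-stalk protein that recruits elongation factors, of Rpl41 at 275 FPKM, which encodes a very short basic protein, and of Rps27 at 214 FPKM, a zinc finger protein of the small subunit. The lowest were those of Rps19bp1 at 3.17, Rps10 at 6.24 and Rpl7l1 at 6.54 FPKM. Rpl36 was not listed in the FPKM table. Per kilobase of a chosen annotated mRNA, counts gave Rplp1 again as the highest (570 CPM per kb) and Rps19bp1 again as the lowest (11.7 CPM per kb). The order between these extremes depended on the scale, since Rpl11 was at 7.48 FPKM but at 218 CPM per kb. At least 1 pseudogene row existed for 60 of the 83 genes and 28 shared exon bases on the same strand with another annotated gene, so that between-gene levels are less certain than the same gene's level between mice.

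Within groups, the ribosomal protein genes moved together from mouse to mouse. After the means of group and batch were taken out, the mean correlation between pairs of the 83 genes was 0.68 over 24 mice, against 0.006 between pairs of all tested genes. Without OHFD mouse 2 it was 0.48, and it was 0.51 within the large and 0.55 within the small subunit. The 78 genes of the mitochondrial ribosome, which makes proteins inside mitochondria, had a mean of 0.26 among themselves without this mouse. These correlations share libraries and are given as a description. The least variable genes within groups were Rpl31 (pooled SD 0.14 on the log2 CPM scale), Rpl17 and Rpl29 (both 0.15), and the most variable were Rpl37a (0.62), Rpl36a (0.48) and Rpl41 (0.46), 3 genes that were among the highest in OHFD mouse 2.

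**Figure D2:**
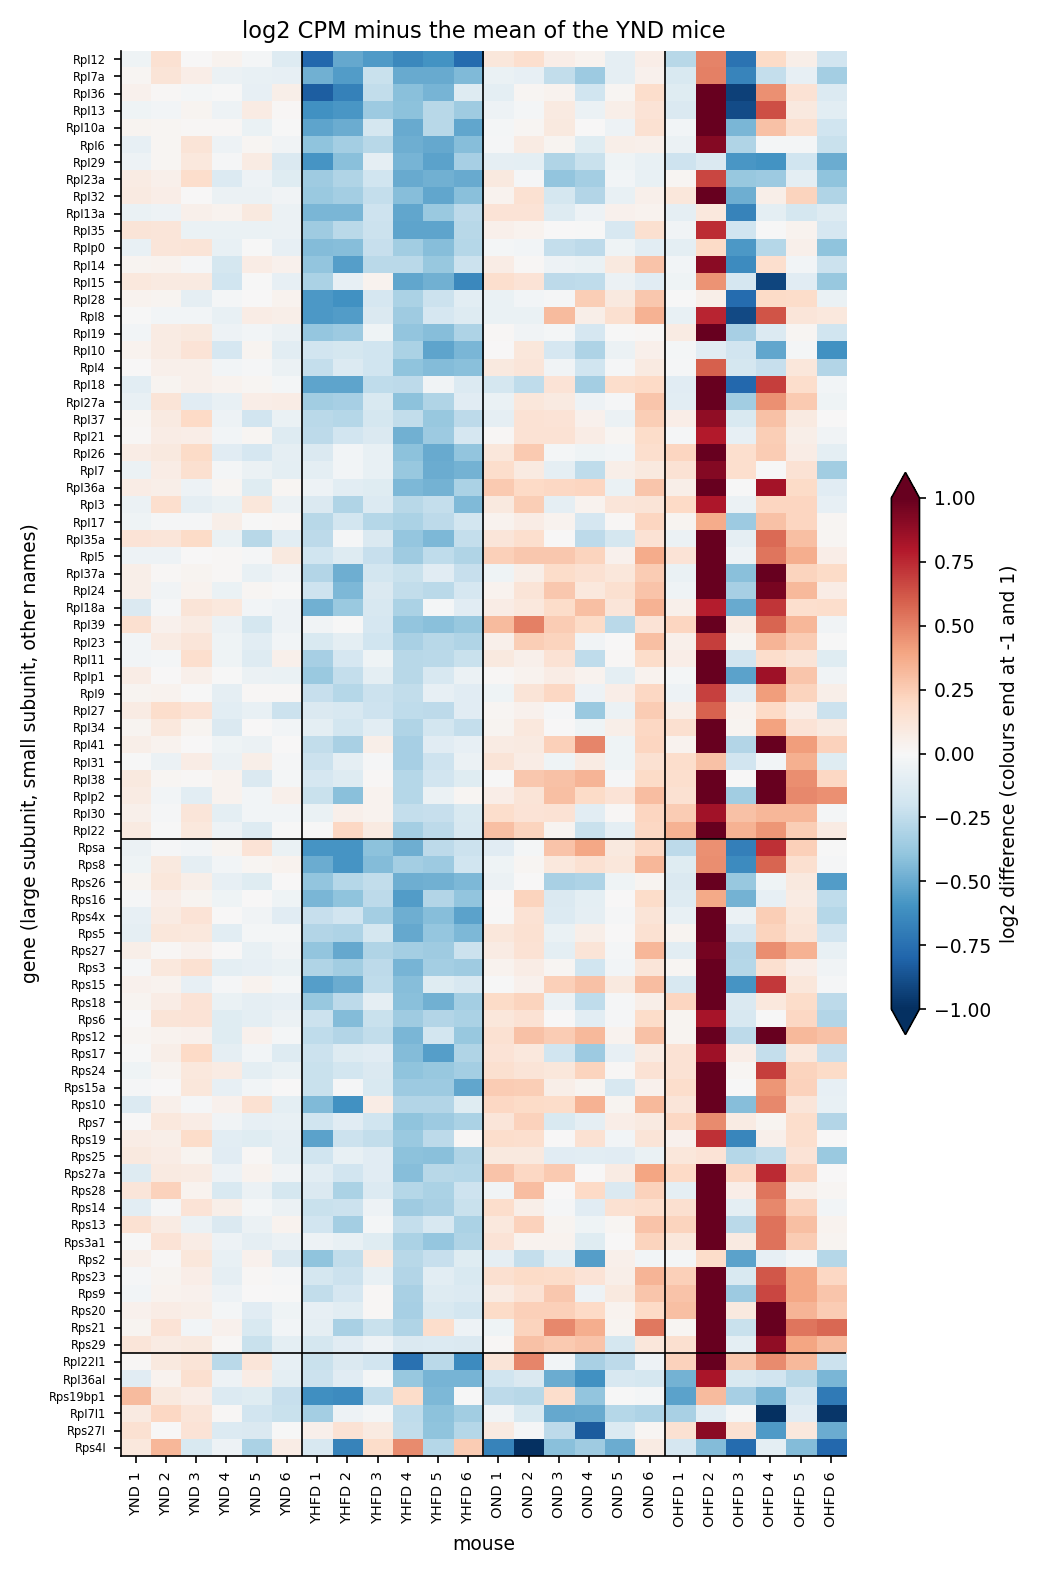
log2 CPM of 82 of the 83 genes (rows) in each of the 24 mice (columns), minus the mean of the 6 YND mice. Red is higher and blue lower than that mean, with colours ending at differences of -1 and 1. Within the large subunit, the small subunit and the other names, genes are ordered by their fold change between YHFD and YND mice. Nearly all rows are blue in the 6 YHFD mice, and OHFD mouse 2 is red in all but a few rows.

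The first comparison asked what 9 weeks of high fat diet changed in young hepatocytes. All 83 genes had a negative log2 fold change between YHFD and YND mice, from -0.64 to -0.02, with a median of -0.27, which corresponds to a decrease by 16.9% on the linear scale. The median over all 13583 tested genes was 0.01. The shift was alike in the large subunit (median -0.26, 46 of 46 genes negative), the small subunit (median -0.28, 31 of 31) and the 6 others (median -0.25, 6 of 6). In 36 of the 83 genes, every YHFD mouse was below every YND mouse in log2 CPM, and in none was every YHFD mouse above. Over all tested genes this was so for 3.06% (below) and 1.77% (above).

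Single genes seldom passed the test at this size of change. Of the 83 genes, 3 were called lower (adjusted p below 0.05 over all tested genes, edgeR quasi-likelihood test) and 0 were called higher, where 1.59% of all tested genes were called lower and 1.91% higher. DESeq2 called 10 lower and 0 higher, with 3.0% and 6.24% of all genes. Rpl12, a protein of the stalk base of the large subunit, was between 141 and 168 CPM in YND mice (median 151) and between 88.0 and 107 CPM in YHFD mice (median 102). The groups did not overlap, and its log2 fold change was -0.64 ± 0.14 (SE, adjusted p = 0.012). Rpl29 was between 131 and 153 CPM in YND mice (median 139) and between 93.2 and 133 CPM in YHFD mice (median 109), with a log2 fold change of -0.40 ± 0.10 (adjusted p = 0.033). The Rpl29 groups overlapped by 1 YHFD mouse. Rpl13a, a protein that is also known from a complex that silences inflammatory mRNAs, was between 60.9 and 72.5 CPM in YND mice (median 64.8) and between 47.9 and 60.8 CPM in YHFD mice (median 51.0). Its groups did not overlap in CPM, and the log2 fold change was -0.38 ± 0.10 (adjusted p = 0.041).

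Several other members with well-known roles did not pass the test with all mice in the model, and some of them passed without OHFD mouse 2. Rplp0, the scaffold of the P-stalk and a frequent reference gene for qPCR, was between 317 and 374 CPM in YND mice and between 256 and 314 CPM in YHFD mice (medians 350 and 278, log2 fold change -0.36 ± 0.11, adjusted p = 0.072). Rps6 had medians of 118 and 102 CPM in the same groups (-0.30 ± 0.13, adjusted p = 0.16). Rps4x, the X-linked form of a small subunit protein, had medians of 284 and 225 CPM (-0.37 ± 0.14, adjusted p = 0.14). In Rplp0, Rps6 and Rps4x alike, no YHFD mouse reached the lowest YND mouse. When OHFD mouse 2, which is in neither group, was left out, their log2 fold changes were -0.36, -0.31 and -0.37 and all 3 were called lower (adjusted p = 0.031, 0.032 and 0.024). Rpl5 and Rpl11, the pair that binds Mdm2, had log2 fold changes of -0.25 ± 0.15 and -0.22 ± 0.17 (adjusted p = 0.37 and 0.50, and 0.094 and 0.12 without OHFD mouse 2). Among the genes with the smallest changes were Rps4l at -0.02, Rpl22 at -0.08 ± 0.15 and Rps27l, a paralog of Rps27 that p53 induces, at -0.11 ± 0.15.

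The number of calls in the comparison of YHFD with YND differed between fits, while the median log2 fold change was negative in each. With all 24 mice in the model, OHFD mouse 2 enters the estimate of the spread. Without it, 29 of the 83 genes were called lower and 3.55% of all tested genes were, with the median still at -0.27. When the model held only the 12 mice compared, 58 were called lower, with 8.27% of all genes. With limma voom and a weight for each library, in which OHFD mouse 2 received the lowest weight (0.099), 48 were called lower, with 9.44% of all genes. None of these fits called a member higher. Within batch 1 alone the median was -0.28 with 82 of 83 genes negative, and within batch 2 alone it was -0.27 with 80 negative. Neither batch of 3 against 3 mice called any of the 83 genes. Of all genes, batches 1 and 2 called 0.258% and 0.0351% lower and 0.701% and 0.0281% higher. The count of 3 fell to 1 when any of YND mice 1 to 5, YHFD mice 1, 2 or 5, or OND mouse 2 was left out, with 0.463% to 1.27% of all genes, and was 5 without OHFD mouse 3, with 1.21% of all genes. Marker sums overlapped between both groups. Those of hepatocytes were lower on average in YHFD mice (126330 against 137521 CPM), with 9 of 10 markers negative, a median log2 fold change of -0.22 and 0 called, and those of erythroid cells also had a lower sum (93.0 against 123 CPM), although 2 of 3 tested erythroid markers were called higher and their median log2 fold change was 3.55. Those of other cell types were higher on average, with leukocyte markers between 5.77 and 76.8 CPM in YND and between 22.2 and 228 CPM in YHFD mice. Of 17 tested leukocyte markers 16 were positive (median log2 fold change 2.21) and 3 were called higher. Endothelial markers were between 11.6 and 139 and between 39.4 and 310 CPM, with 8 of 8 positive (median 1.49) and 1 called higher. Without OHFD mouse 2, 3 leukocyte and 4 endothelial markers were called higher, and 3 of 7 stellate cell and fibroblast markers (1 with all mice). Their part in the shift of the ribosomal protein genes was not tested.

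**Figure D3:**
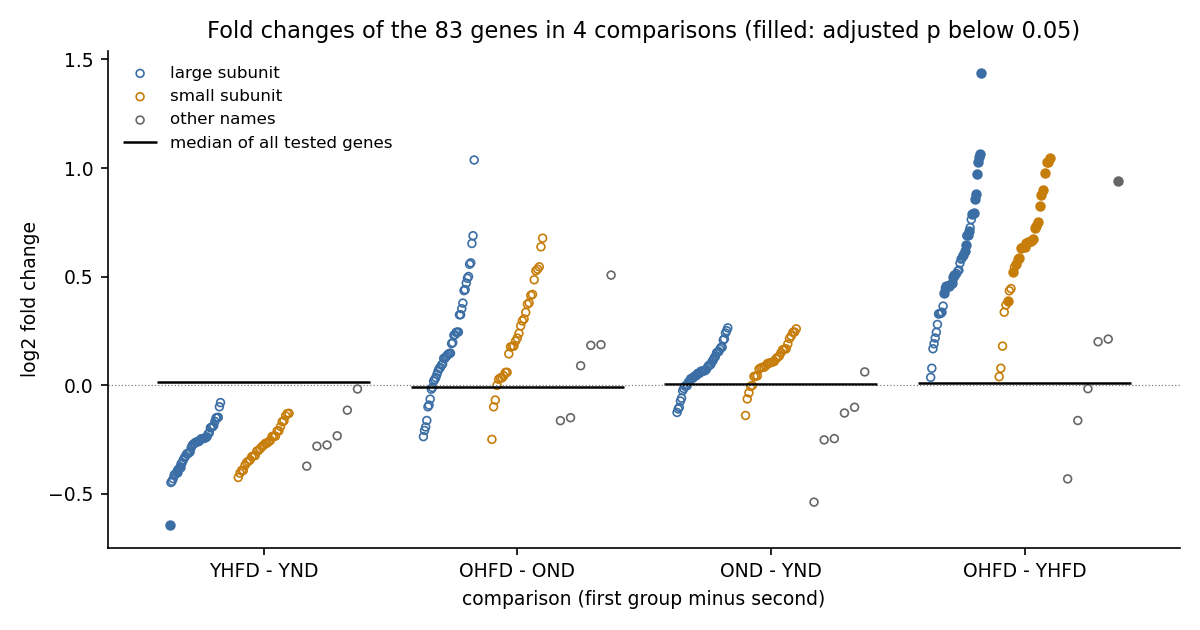
log2 fold changes of the 83 genes (vertical axis) in 4 comparisons (horizontal axis, first group minus second), by subunit. Each circle is a gene, filled where the adjusted p was below 0.05, and the black lines give the median of all tested genes. In the comparison of YHFD with YND all genes lie below 0, and in that of OHFD with YHFD 80 of 83 lie above 0.

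Other genes of the translation machinery were set beside these by lists of names. Rack1, which encodes a scaffold on the small subunit, is missed by the naming pattern and was called lower in YHFD than in YND mice (-0.39 ± 0.11, adjusted p = 0.045). Fau, which encodes a ribosomal protein fused to a ubiquitin-like protein, had a log2 fold change of -0.17 ± 0.19 (adjusted p = 0.68). Of 18 translation factors whose mRNAs are known TOP mRNAs, 17 were negative and 0 were called, with a median log2 fold change of -0.20. For Eef1a1, which brings aminoacyl-tRNA to the ribosome, it was -0.29 ± 0.12 (adjusted p = 0.16), and for Pabpc1, the poly(A)-binding protein, -0.23 ± 0.08 (adjusted p = 0.10). Of 35 initiation factors, 33 were negative (median -0.19), and of 71 ribosome biogenesis genes 59 were negative (median -0.15), with none called in either list. The mitochondrial ribosome did not show the shift in this comparison, with 42 of 78 genes negative, a median of -0.03 and none called.

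**Figure D4:**
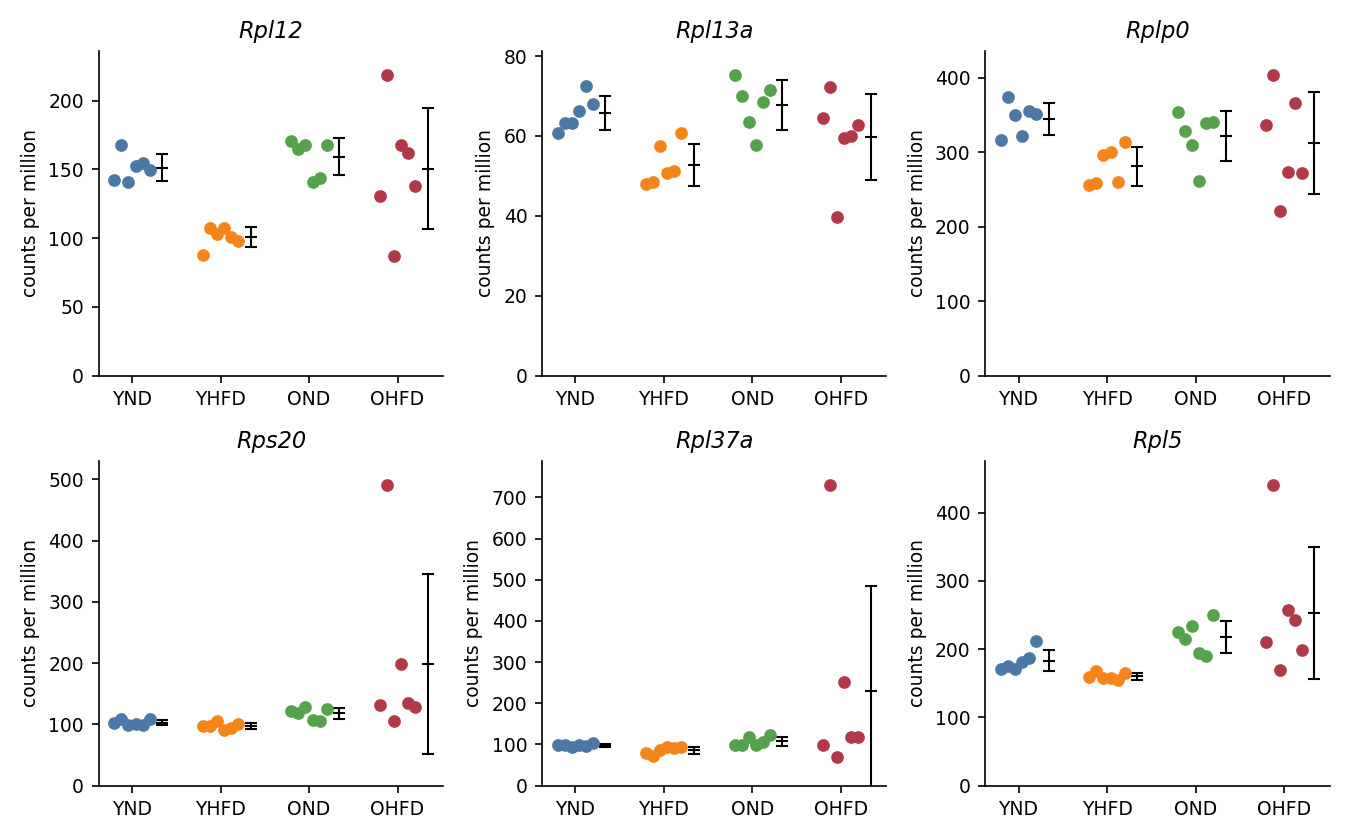
CPM (vertical axis, from 0) of 6 ribosomal protein genes in each mouse of the 4 groups. Points are mice, and bars give the mean ± SD of 6 mice, with the lower end for Rpl37a in OHFD mice running below 0. Rpl12 and Rpl13a are lower in all YHFD mice than in all YND mice, while Rpl37a and Rps20 are highest in OHFD mouse 2.

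The same diet in old mice gave a median shift that did not keep its sign in all fits. Between OHFD and OND mice, 0 of the 83 genes were called in either direction by edgeR, where 1.37% of all tested genes were called higher and 1.64% lower. At an unadjusted p below 0.05 there were 20 genes (6 without OHFD mouse 2), and the share of all tested genes at this cut was not counted. DESeq2 called 1 higher, with 4.51% of all genes. In no gene did the groups fail to overlap, where this was so for 0.471% (above) and 0.788% (below) of all tested genes. The median log2 fold change was 0.18, with 68 genes positive and 15 negative, and it became -0.01, with 37 positive and 46 negative, when OHFD mouse 2 was left out. Without OHFD mouse 3, 8 genes were called higher, with 3.35% of all genes. Within batches the median was 0.27 (batch 1, which holds OHFD mouse 2) and 0.09 (batch 2), with 67 and 61 genes positive. The median deviation of the 83 genes from the YND mean was 0.02, 1.0, -0.22, 0.29, 0.16 and -0.08 in OHFD mice 1 to 6, against -0.36 to -0.16 in the YHFD mice and -0.05 to 0.17 in the OND mice. Only OHFD mouse 3 was within the YHFD range. Rpl12 itself was between 141 and 171 CPM in OND mice (median 166) and between 87.2 and 219 CPM in OHFD mice (median 150), with a log2 fold change of -0.09 ± 0.14 (adjusted p = 0.75). The smallest p were those of Rps20 (0.68 ± 0.24, adjusted p = 0.10), Rpl38 (0.69 ± 0.25, adjusted p = 0.11) and Rpl37a (1.04 ± 0.37, adjusted p = 0.11). These log2 fold changes without OHFD mouse 2 were 0.25, 0.28 and 0.28 (adjusted p = 0.27, 0.32 and 0.47), and without OHFD mouse 3 they were 0.82, 0.84 and 1.23 (adjusted p = 0.039 for each).

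Whether the effect of diet differed between ages was tested as an interaction. The interaction term was positive for all 83 genes, with a median of 0.46 (0.27 without OHFD mouse 2, with 82 positive), where the median of all tested genes was -0.03. No gene was called in either direction, and 0% of all tested genes were called higher and 0% lower. At an unadjusted p below 0.05 there were 57 members (33 without OHFD mouse 2), and the share of all tested genes at this cut was not counted. The lowest adjusted p of the members was 0.53, and DESeq2 also called 0 members (0.0147% of all genes higher and 0.0147% lower). The difference between the effects of diet in young and old mice is thus not shown for any single gene by this test. On the normal diet, age gave small fold changes. Between OND and YND mice 0 of the 83 genes were called by edgeR or by DESeq2 (1 at an unadjusted p below 0.05), where 7.26% of all tested genes were called higher and 1.24% lower. The median was 0.07 and the range -0.54 to 0.26. Rps4l, the transcribed pseudogene, was the gene with an unadjusted p below 0.05. It was between 12.3 and 18.7 CPM in YND mice (median 14.8) and between 5.93 and 16.7 CPM in OND mice (median 10.6), with overlap and a log2 fold change of -0.54 ± 0.20 (adjusted p = 0.091). It was called lower without OND mouse 6 (-0.66, adjusted p = 0.032) and with library weights (-0.57, adjusted p = 0.048). The next smallest p were those of Rpl7l1 (-0.25 ± 0.12, adjusted p = 0.25) and Rpl5. Rpl5 was between 171 and 212 CPM in YND mice and between 190 and 250 CPM in OND mice (medians 178 and 220, 0.25 ± 0.15, adjusted p = 0.35). Rpl5 was called higher with only the 2 groups compared (0.26, adjusted p = 0.042) and with library weights (0.24, adjusted p = 0.037). It was not called without OHFD mouse 2 (0.23, adjusted p = 0.10). Leukocyte markers, by contrast, were called higher for 15 of 17 tested in the same comparison.

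After scaling for library size, levels of most of these genes were higher in old than in young mice on the high fat diet. Between OHFD and YHFD mice, 43 of the 83 genes were called higher and 0 lower (51.8%), where 1.82% of all tested genes were called higher and 0.42% lower. The median log2 fold change was 0.56 and 80 of 83 genes were positive, with the exceptions Rpl7l1, Rps19bp1 and Rps4l, which are all among the 6 others. The calls comprised 21 of 46 large subunit genes (median 0.51), 21 of 31 small subunit genes (median 0.64) and Rpl22l1. In 12 genes every OHFD mouse was above every YHFD mouse (0.552% of all tested genes) and in 0 genes below (0.25%). These 12 were Rpl3, Rpl5, Rpl21, Rpl23, Rpl34, Rpl35, Rpl37, Rps3a1, Rps20, Rps24, Rps27a and Rps28.

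The genes with the highest fold changes had their highest value in OHFD mouse 2. Rpl37a, a zinc-binding protein of the large subunit, was between 70.8 and 93.0 CPM in YHFD mice (median 89.8) and between 70.6 and 731 CPM in OHFD mice (median 118). The value of 731 CPM was that of OHFD mouse 2 and the next highest, 252 CPM, that of OHFD mouse 4. The log2 fold change was 1.44 ± 0.37 (adjusted p = 0.042). Rps20, which lies at the head of the small subunit, was between 90.5 and 105 CPM in YHFD mice (median 97.0) and between 106 and 491 CPM in OHFD mice (median 133), without overlap (1.04 ± 0.24, adjusted p = 0.027). Rpl36a (1.06 ± 0.27), Rpl38 (1.05 ± 0.24), Rps21 (1.03 ± 0.24) and Rpl41 (1.03 ± 0.27) had fold changes close to that of Rps20, all with OHFD mouse 2 highest. Rpl38 is known from the mouse mutant Tail-short, in which the translation of Hox mRNAs is impaired. Rpl5 rose with a smaller spread. It was between 155 and 169 CPM in YHFD mice (median 159) and between 170 and 441 CPM in OHFD mice (median 226), a log2 fold change of 0.69 ± 0.15 (adjusted p = 0.020) with no overlap. Rpl12 had medians of 102 and 150 CPM in these groups, with 1 OHFD mouse below the lowest YHFD mouse (0.62 ± 0.14, adjusted p = 0.023). Rpl3, a core protein beside the peptidyl transferase center, had medians of 194 and 255 CPM (0.50 ± 0.12, adjusted p = 0.031), and Rps27 of 86.2 and 123 CPM (0.63 ± 0.15, adjusted p = 0.032).

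Among the paralogs, Rpl22 and Rpl22l1, which encode interchangeable proteins of the large subunit, were both called higher in OHFD than in YHFD mice, at 0.65 ± 0.16 (adjusted p = 0.033) and 0.94 ± 0.19 (adjusted p = 0.017). Rpl36a was called and Rpl36al was not (0.21 ± 0.15, adjusted p = 0.43), and likewise Rps27 was called and Rps27l was not (0.20 ± 0.15, adjusted p = 0.46). Without OHFD mouse 2, neither Rpl36a (adjusted p = 0.082) nor Rps27 (adjusted p = 0.067) was called. The difference between the paralogs of each pair was not tested. Reads from near-identical copies may be divided between rows or left out by the counting, which adds uncertainty to these pairs.

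Without OHFD mouse 2, the comparison of OHFD with YHFD called 16 of the 83 genes higher, with 0.761% of all tested genes, and all 16 were among the 43. The median was then 0.35 with 78 genes positive. Rpl5, Rpl22, Rpl22l1, Rpl30, Rpl38, Rps20, Rps24 and Rps27a were among the 16, and Rpl37a, Rpl36a, Rps21, Rpl41 and Rpl12 were not, nor were Rpl3 and Rps27. The log2 fold change of Rpl37a was then 0.60 (adjusted p = 0.12), that of Rps20 0.57 (adjusted p = 0.023), that of Rpl5 0.46 (adjusted p = 0.024) and that of Rpl12 0.48 (adjusted p = 0.053). With limma voom and library weights 11 were called, with 0.67% of all genes. With only the 12 mice compared 0 were called, with 0.378% of all genes. At an unadjusted p below 0.05 there were 66 members in that fit (52 when OHFD mouse 2 was left out of it), and the share of all genes at this cut was not counted. Other mice also decided the count, and the share of all genes called moved with it. The count was 22 to 25 when a YND mouse was left out (1.02% to 1.29% of all genes) and 0 to 13 when a YHFD mouse was left out (0.253% to 1.05%), with the 0 and 0.253% without mouse 4. It was 25 without OND mouse 2 (1.35% of all genes), 1 without OHFD mouse 4 (0.553%) and 69 without OHFD mouse 3 (3.91%). Leukocyte markers summed to between 22.2 and 228 CPM in YHFD and between 82.0 and 790 CPM in OHFD mice, with 129 CPM in OHFD mouse 2. Of 17 tested leukocyte markers 0 were called, but 17 were positive, with a median log2 fold change of 1.35 (17 positive and 1.34 without OHFD mouse 2). Their part in this result was not tested. In batches 1 and 2 alone, each with 80 of 83 genes positive, the medians were 0.61 and 0.44. None of the 83 genes was called in either batch, with 0.0665% and 0% of all genes called higher.

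In OHFD mouse 2, high counts went with short mRNAs in general. Over other tested genes, its median deviation from the YND mean on the log2 CPM scale was 1.44 for mRNAs up to 600 bases, 0.99 above 600 and up to 1000 bases, 0.37 up to 2000 bases, -0.16 up to 4000 bases and -0.61 above 4000 bases. OHFD mouse 4 had 0.57 in the shortest class and -0.14 in the longest. Every OHFD mouse was positive in the shortest class (0.12 to 1.44) and negative in the longest (-0.61 to -0.03). Ribosomal protein mRNAs are short, with a median of 882 bases over the 82 genes with an annotated length, and 63.4% of them were up to 1000 bases against 5.49% of other tested genes. Between OHFD and YHFD mice, the median log2 fold change of mRNAs up to 600 bases was 0.76 for 19 ribosomal protein genes and 0.52 for 114 other genes. Above 1000 and up to 2000 bases it was 0.45 for 24 ribosomal protein genes and 0.12 for 2545 other genes. Without OHFD mouse 2 the medians in these classes were 0.43 and 0.17, and 0.29 and 0.04. Between YHFD and YND mice, the medians were -0.25, -0.27 and -0.30 for ribosomal protein genes in the 3 classes up to 2000 bases. Those of other genes fell from 0.08 in the shortest class over 0.02, 0.02 and 0.02 to -0.04 in the longest, in the same direction as in OHFD mouse 2. The part of mRNA length in the fold changes of the ribosomal protein genes was not tested.

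**Figure D5:**
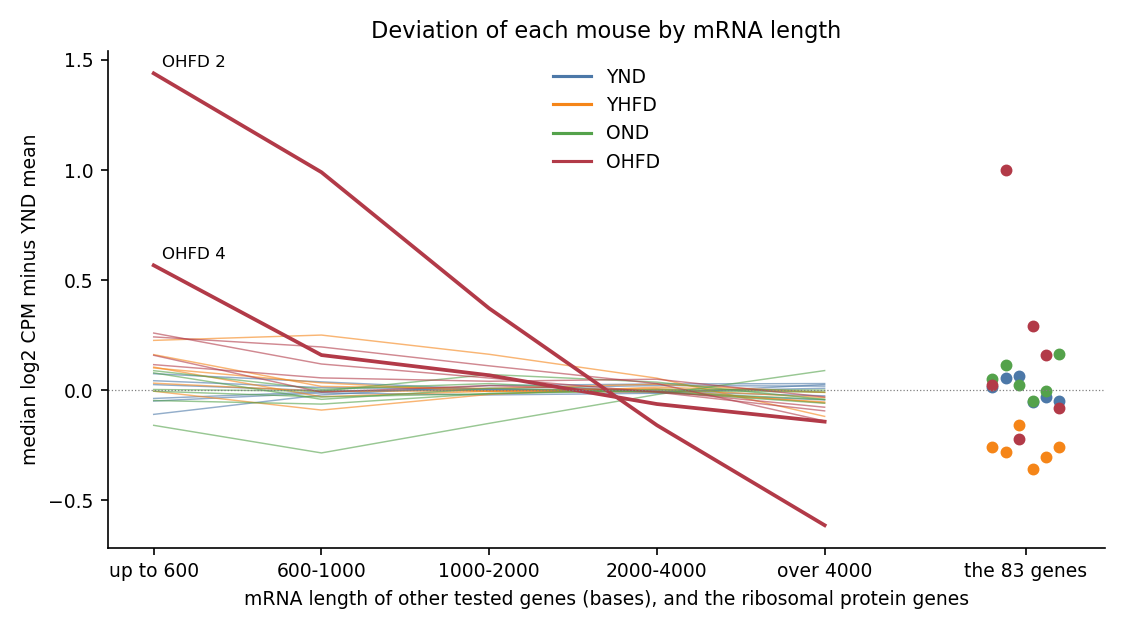
Median log2 CPM of each mouse minus the YND mean (vertical axis), for other tested genes in 5 classes of mRNA length (lines, 1 per mouse, horizontal axis in bases) and for the 83 ribosomal protein genes (points at the right). OHFD mouse 2 falls from 1.44 in the shortest class to -0.61 in the longest. Points of the YHFD mice lie between -0.36 and -0.16, and their lines run from -0.12 to 0.25, with YHFD mouse 3 highest in the 3 shortest classes and lowest in the longest.

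Old mice on the high fat diet were last set against young mice on the normal diet, so that age and diet both differ. Of the 83 genes, 26 were called higher and 2 lower, where 17.3% of all tested genes were called higher and 12.9% lower, with a median log2 fold change of 0.25. Without OHFD mouse 2, 10 were called higher and 5 lower, with 15.7% and 11.8% of all tested genes and a median of 0.04, so that the members' share of higher calls was then below that of all genes. Both genes called lower with all mice were Rpl29 (-0.36 ± 0.10, adjusted p = 0.011), which was below every YND mouse in every OHFD mouse, and Rpl7l1 (-0.40 ± 0.12, adjusted p = 0.020), a paralog of Rpl7 that works in ribosome assembly. Rpl7l1 was between 54.8 and 70.0 CPM in YND mice and between 28.8 and 57.9 CPM in OHFD mice. Rps20 was above every YND mouse in every OHFD mouse in log2 CPM with TMM scaling, while the groups overlapped in CPM on total counts (log2 fold change 0.90 ± 0.24, adjusted p = 0.0072). Leukocyte markers were called higher for 16 of 17 tested, endothelial markers for 8 of 8 and stellate cell and fibroblast markers for 5 of 7 (16, 8 and 6 without OHFD mouse 2), while 4 of 10 hepatocyte markers were called lower with and without this mouse. Their part in this comparison was not tested. With only the 12 mice compared 1 member was called higher (10.7% of all genes) and 0 lower (6.71%), and with library weights 4 were called higher (13.1%) and 4 lower (12.7%). The count of genes called higher was 15 or 16 without YND mouse 1, 2 or 3 (13.8% to 14.6% of all genes) and 44 without OHFD mouse 3 (20%). That of genes called lower was 4 without OHFD mouse 1 or 5 (13.2% and 13% of all genes) and 1 without OHFD mouse 4 or 6 (9.04% and 10.7%). On the authors' FPKM at a pseudocount of 1, 23 of 82 genes had the opposite sign to that on counts, Rps21, Rpl41 and Rps27 among them, and 42 of 82 were positive against 66 of 83 on counts. The median was then 0.02, with 0 called higher and 8 lower (9.52% and 12.2% of all genes).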

How the data were processed

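Hepatocyte mRNA of 24 mice was sequenced by the authors after poly(A) selection. Reads were aligned by the authors to mm10 with STAR 2.7.3a after FastQC 0.11.8, with GENCODE annotation, and the deposited counts are whole reads per gene from HTSeq 0.11.2, not normalized. The deposited FPKM came from Cufflinks, and the name of that table points to a ComBat batch adjustment, which is not further described in the sources used here.

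From the counts, differences were tested with edgeR 4.0.16 (quasi-likelihood F test, TMM factors, filterByExpr, group and labelled batch in 1 model of all 24 mice), with Benjamini-Hochberg adjustment over 13583 genes and a threshold of 0.05. The model and fold changes were tested on simulated counts of genes that had passed the filter, so the filter itself was not tested. The simulation held no batch effect and no library that stood apart. log2 CPM used a prior count of 2. Standard errors are the log2 fold change divided by the square root of F. CPM are counts scaled to a total of 1000000 per mouse. Replicates are separate mice, and the errors given are those between mice. Within groups, no pair of libraries agreed within sampling noise (60 pairs, chi-square per degree of freedom of at least 14.5). Alternatives were DESeq2 1.42.0, RLE factors, TMM factors from other genes, no batch term, no filter, only the groups compared, a replicate block, single batches, limma 3.58.1 on log2(FPKM + 1) and log2(FPKM + 0.1) and leaving out each mouse. Added after seeing the data were voom with library weights, leaving out OHFD mouse 2 and OND mouse 4 together, only the groups compared without OHFD mouse 2, and removal of mitochondrially encoded genes. mRNA lengths are those of 1 principal coding transcript per gene of GENCODE vM21 (GRCm38).

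The ribosomal protein genes and lists were chosen with earlier results of these data known. Genes named were taken, as far as they bear on a sentence, from a set that held, per comparison, the 6 highest and 6 lowest fold changes among calls (the 3 smallest p where fewer than 3 passed), the 3 extremes of FPKM and of SD, and a fixed set with known roles or paralogs. From the other lists, up to 3 genes with the smallest adjusted p were named. The values of 1 of the 83 genes and of 1 gene of another list are not reported singly here.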

Additional observations from a re-analysis of the deposited data

Results flagged for a closer look

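In each group of 6 mice, the share of counts on the ribosomal protein genes, the ratio of large to small subunit counts and the log2 CPM of 26 named genes were checked for a mouse that lay far from the other 5 (Dixon's test), which gave 11 such values among 112 groups of values, where chance gives about 1 in 20 for independent checks. The checks share libraries and genes that move together, so the 11 values cannot be measured against that rate. Of the 11 values, 6 came from OHFD mouse 2. Its share of counts was 2.69%, and its log2 CPM was 8.74 for Rpl11, 8.14 for Rpl22, 6.41 for Rpl22l1, 6.59 for Rpl36al and 8.61 for Rpl3, each the highest of its group.

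Rpl13a was low in OHFD mouse 3, at a log2 CPM of 5.39. In OND mice, the ratio of large to small subunit counts was low in mouse 4 (1.39), and Rpl36a (6.08) and Rps20 (6.74) were at a distance from the others in mouse 5. Rpl9 stood apart in YND mouse 4, at a log2 CPM of 7.45. No named gene passed the test of the age by diet interaction.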

How the results depend on the processing

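The direction of the median fold change of the 83 genes held under all alternatives for YHFD against YND (negative), OHFD against YHFD (positive) and OHFD against YND (positive). For OHFD against OND it was positive and turned to -0.01 without OHFD mouse 2, -0.01 without both OHFD mouse 2 and OND mouse 4, and -0.05 with library weights, and for OND against YND it was 0.07 (63 of 83 positive) and turned to -0.03 (31 of 82) with limma on FPKM at both pseudocounts, while the number of calls moved widely. Percentages in brackets are the share of all tested genes called in the same direction by the same fit. For YHFD against YND, members called lower numbered 10 with DESeq2 (3.0%), 1 without the batch term (0.648%), 1 without the count filter (1.2%), 58 with only the 2 groups (8.27%), 0 in either batch (0.258% and 0.0351%), 5 with limma on log2(FPKM + 0.1) (0.864%), 24 without both OHFD mouse 2 and OND mouse 4 (3.72%), and 48 with library weights (9.44%). For OHFD against YHFD, members called higher numbered 17 without the batch term (0.751%), 0 with only the 2 groups (0.378%), 0 also when OHFD mouse 2 was left out of them (0.311%), 0 in either batch (0.0665% and 0%), 0 with limma on FPKM at either pseudocount (0.462% and 0.44%), 23 without both mice (1.14%) and 11 with library weights (0.67%). For OHFD against YND, members called higher numbered 1 with only the 2 groups (10.7%), 1 also when OHFD mouse 2 was left out of them (12%), 0 in batch 1 (4.24%), 3 in batch 2 (2.4%), 0 with limma on FPKM (9.52% at a pseudocount of 1), 13 without both mice (18.9%) and 4 with library weights (13.1%). Those called lower numbered 1 without the batch term (9.96%), 1 without the filter (5.22%), 0 with only the 2 groups (6.71%), 1 when OHFD mouse 2 was left out of these 2 groups (8.26%), 0 in each batch (2.55% and 1.93%), 8 with limma on FPKM (12.2% and 12.4%), 4 without both mice (11.3%) and 4 with library weights (12.7%). For OHFD against OND, 1 was called higher with DESeq2 (4.51%) and 8 without the filter (1.67%). For OND against YND, 3 were called higher with only the 2 groups (7.31%), 1 higher and 1 lower with library weights (5.7% and 5.21%), and 1 lower with limma on log2(FPKM + 0.1) (0.561%). The interaction called 7 higher without the filter (0.309%). The cause was not tested in any of these.

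Leaving out 1 mouse at a time gave 1 to 29 members lower for YHFD against YND (0.463% to 3.55% of all genes), 0 to 8 higher for OHFD against OND (0.231% to 3.35%), 0 to 1 lower for OND against YND (0.451% to 2.45%), 0 to 69 higher for OHFD against YHFD (0.253% to 3.91%), and 10 to 44 higher (13.3% to 21.1%) and 1 to 5 lower (9.04% to 13.2%) for OHFD against YND. With limma on log2(FPKM + 1) and log2(FPKM + 0.1), log2 fold changes of OHFD against YND turned to -0.37 and -0.37 for Rps21, -0.28 and -0.28 for Rpl41 and -0.72 and -0.73 for Rps27. The level of the genes in each group moved by less than 1 SD with a minimum of 1 or 20 CPM or with TMM-scaled totals.

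Replicate numbers are shared between groups, but they belong to different mice. Same-numbered mice had correlated deviations from their group means in 21 of 36 pairs (above 0.1, range -0.32 to 0.55, mean 0.18), and in 20 of 72 comparisons a mouse matched its own number best. Batch was not taken out of these deviations, and same-numbered mice share a batch except for OND mouse 3. These values therefore cannot show whether the numbers pair mice. With a replicate block, 1 member was called lower for YHFD against YND (Rpl12, 1.01% of all genes), 12 higher for OHFD against YHFD (0.758%) and 17 higher for OHFD against YND (13.7%).

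Mean levels of the 83 genes were between 9.78 and 472 CPM in libraries of at least 9200332 counts, and no result turned on a gene near the count filter.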
